A study of Homo sapiens with 4 samples.

Results

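The clustered protocadherin genes of chromosome 5 were examined in HT1080 cells, an established human fibrosarcoma line, in which the KDAC8 gene was knocked out. Members were the rows of the gene table whose names follow the alpha (PCDHA), beta (PCDHB) or gamma (PCDHG) pattern, without pseudogenes named with a final P, which gave 54 of 60675 rows. They comprised 16 alpha, 16 beta and 22 gamma genes, the last made up of 12 gamma A, 7 gamma B and 3 gamma C-type genes. PCDHA14 met the name rule although GENCODE 29 classes it as a pseudogene, and the other 53 are protein-coding.

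The series holds 1 group of 4 replicate libraries of total RNA depleted of ribosomal RNA, all with the genotype KDAC8 knockout and no stated treatment. KDAC8 is the protein of HDAC8, a lysine deacetylase that acts on the cohesin subunit SMC3. A parental or control library was not analysed here, so the values below are levels in knockout cells, and neither an effect of the knockout nor a dependence of the locus on cohesin was tested. The labels do not say how the knockout was made, whether the line is 1 clone, or whether the replicates were separate cultures, so a p-value speaks only of the spread among these 4 samples, and that spread may be technical.

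Clustered protocadherins are cadherin-like adhesion proteins best known from neurons, where each cell uses its own combination of them as a surface identity that lets branches of the same neuron avoid each other. In the alpha and gamma clusters, each gene has its own promoter and a large variable exon for the extracellular and transmembrane part, which is spliced to constant exons that all genes of the cluster share. Beta genes have no constant exons. CTCF and cohesin fold chosen promoters towards distant enhancers, while DNA methylation silences the others, and the C-type genes at the end of the alpha and gamma clusters are used more evenly across neurons than the rest.

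Levels are given as CPM, the count relative to the effective library size, with the SD over the 4 libraries (n = 4). Total counts per library ran from 39454210 to 45828807. HDAC8 itself stood at 1.98, 2.11, 2.10 and 2.53 CPM in replicates 1 to 4, and since the count covers the whole gene, this level is no check of the knockout. The fibrosarcoma label was set against marker genes: 5 of 10 mesenchymal markers reached 1 CPM in all libraries, led by the filament protein VIM at 4701 CPM, CD44 at 1560.1 and FN1 at 633, while LUM was at 0. Of 6 epithelial markers, 3 reached 1 CPM in all libraries, KRT8 (229.7 CPM), KRT18 (159 CPM) and CLDN4 (2.49 CPM), and EPCAM, CDH1 and KRT5 were at 0 in every library. Of 10 neural markers, 5 reached 1 CPM in all libraries, with TUBB3 at 127 CPM and SNAP25 at 5.45 CPM, and STMN2 was at 0.

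The exon structure decides which reads can be told apart. All members lie on the forward strand, the alpha genes at chr5:140786136-141012347, the beta genes at chr5:141051135-141249365 and the gamma genes at chr5:141330571-141512981 (GRCh38, GENCODE 29). The 3 alpha constant exons hold 2866 bases and the 3 gamma constant exons 2181 bases. The joins below are shown because they mark where a transcript stops being its own. Each has 30 bases of the variable exon in lower case and the first 30 bases of the first constant exon in capitals, from GENCODE 29 transcripts.
PCDHGC3: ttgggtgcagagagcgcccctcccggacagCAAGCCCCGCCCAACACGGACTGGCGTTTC
PCDHGB4: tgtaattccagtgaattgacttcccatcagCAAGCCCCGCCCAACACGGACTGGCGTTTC
PCDHGA2: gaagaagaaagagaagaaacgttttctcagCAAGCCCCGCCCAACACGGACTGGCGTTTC
PCDHA4: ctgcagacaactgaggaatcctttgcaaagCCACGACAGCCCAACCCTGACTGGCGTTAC
PCDHA10: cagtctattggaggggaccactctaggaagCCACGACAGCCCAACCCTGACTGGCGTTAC
The capitals were identical in all 22 gamma genes, and a second sequence was identical in the 15 protein-coding alpha genes.

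Shared exons made up 27.6% to 64.4% of the exonic bases of a gamma gene and 21.3% to 56.6% of those of a protein-coding alpha gene, against 0% in the beta cluster. The share of stretches of 150 bases that occur in no other gene's transcripts was 33.4% to 72.8% in the gamma cluster, 43.9% to 78.7% in the alpha cluster and 81.0% to 100% in the beta cluster. PCDHGB4 had the lowest share of the protein-coding members, since a transcript annotated to PCDHGA8 takes in a further 2266 bases of it. PCDHA14 lies wholly within exons of PCDHA10. The deposited values are estimates that can divide a read among genes, and 80.7% of the gamma values above 0 were not whole numbers, compared with 31.3% of beta values, 29.3% of alpha values and 27.0% of those of all rows. How the constant-exon reads were divided is not given in the sources used here, so counts of single alpha and gamma members are uncertain in a way that their cluster sums are not.

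**Figure D1:**
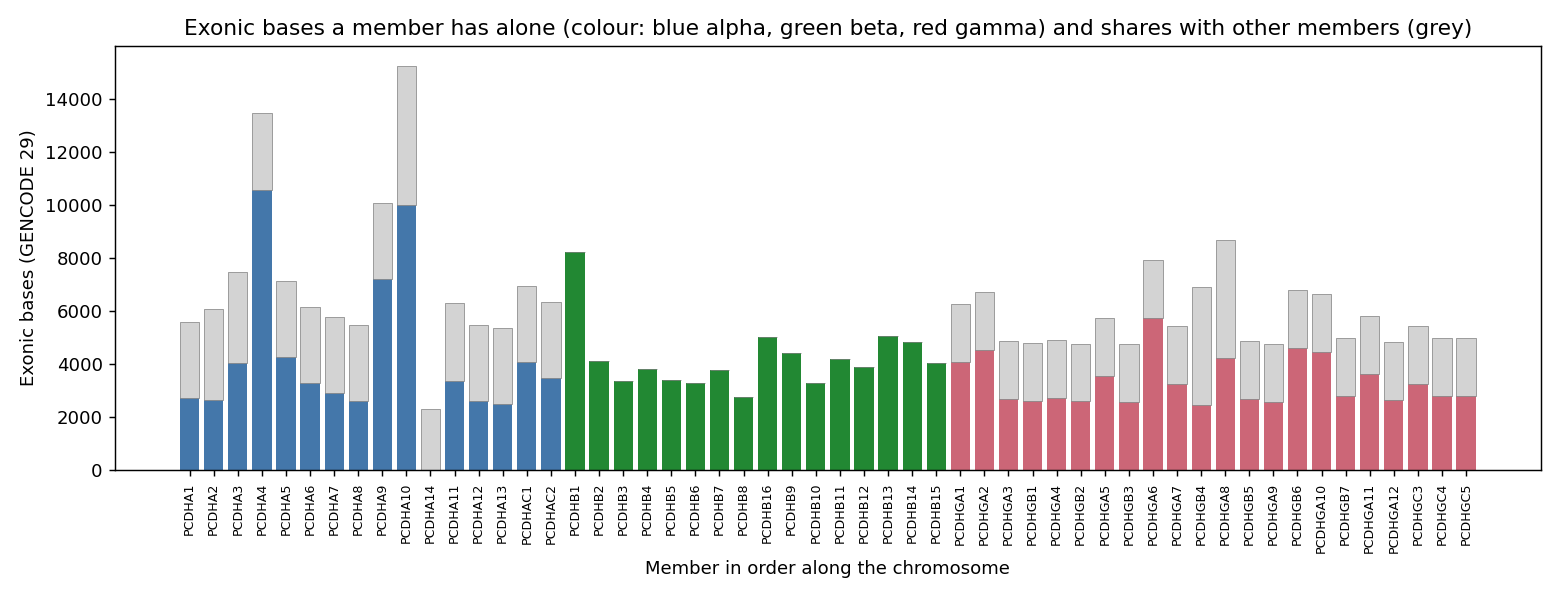
Exonic bases (y axis) of each of the 54 members in chromosomal order (x axis); the coloured part of a bar is found in that member alone and the grey part is shared with other members. Beta bars have no grey part, every gamma bar has at least 2181 grey bases, and PCDHA4 (13440 bases) and PCDHA10 (15224 bases) have the longest models.

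The promoters carry a related element. Most clustered protocadherin promoters are known for a conserved element with the core CGCT, at or near which CTCF binds, and a few, such as those of PCDHAC2, PCDHB1, PCDHGC4 and PCDHGC5, are known to lack it. Promoter windows of 300 bases, from 250 before to 50 after the start, were taken from RefSeq (GRCh38.p14) and matched 47 of the 54 members. PCDHA3, PCDHA13, PCDHA14, PCDHB6, PCDHB11, PCDHGA12 and PCDHGC5 were not matched. Stretches of 44 bases around the element are shown for members at both ends of the range of levels, with the letters of the cluster's form in capitals.
PCDHGC3 (chr5:141475876-141475919, + strand): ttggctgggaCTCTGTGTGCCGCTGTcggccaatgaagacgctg
PCDHGB4 (chr5:141387613-141387656, + strand): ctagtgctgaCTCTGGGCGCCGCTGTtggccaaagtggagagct
PCDHGB5 (chr5:141397859-141397902, + strand): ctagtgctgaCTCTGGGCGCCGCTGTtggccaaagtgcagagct
PCDHGA2 (chr5:141338699-141338742, + strand): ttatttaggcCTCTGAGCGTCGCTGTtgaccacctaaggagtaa
PCDHA4 (chr5:140806975-140807018, + strand): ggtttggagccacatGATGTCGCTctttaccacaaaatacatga
PCDHA7 (chr5:140834168-140834211, + strand): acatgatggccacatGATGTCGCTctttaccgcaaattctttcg
PCDHA12 (chr5:140875240-140875283, + strand): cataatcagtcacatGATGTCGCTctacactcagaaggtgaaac
PCDHB15 (chr5:141245310-141245353, + strand): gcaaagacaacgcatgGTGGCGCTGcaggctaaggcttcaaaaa
PCDHB4 (chr5:141121719-141121762, + strand): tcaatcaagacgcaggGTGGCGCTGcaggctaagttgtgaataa
The forms were written down after reading the members' windows, and both strands were searched. All 3 forms contain CGCT.

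The core CGCT by itself was found in 46 of 47 members but also in 70.0% of 35116 promoter windows of all genes. The gamma form CTCTGNGNGNCGCTGT was in 11 of 20 gamma genes, in no alpha or beta gene, and in 0.0370% of all windows (13 of 35116). Most of these 13 windows belong to the gamma genes from which the form was read, so this share is no independent background. The alpha form GATGTCGCT was in 9 of 13 alpha genes, in no beta or gamma gene, and in 0.105% of all windows. The beta form GNGGCGCTG was in 12 of 14 beta genes, in PCDHGA7 among the gamma genes, in no alpha gene, and in 4.78% of all windows. A match describes these letters only, and a window without one says nothing about binding.

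Which members were transcribed at an appreciable level was the first question. Genes were counted as detected where each of the 4 libraries reached 1 CPM. This held for 13 of the 54 members: PCDHA4, 6 gamma A, 4 gamma B and 2 gamma C-type genes, and no beta gene. Over all rows of the file, 21.4% were detected, and of protein-coding rows 58.8%. In bulk RNA, few cells with much of a transcript and many cells with little of it cannot be told apart. A further 4 members, PCDHGA1, PCDHGA5, PCDHGB6 and PCDHGB7, reached 1 CPM in some libraries. At least 1 count was present in every library for 44 members and in some libraries for 7. PCDHA12, PCDHA14 and PCDHAC2 were never counted, and the floor of 3 counts over the 4 libraries stands at 0.0176 CPM. The exact Poisson 95% interval for 0 counts reaches 3.69 counts, and floors and intervals cover counting error only.

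The gamma cluster held nearly all of the signal. Summed over the 54 members, the level was 155, 135, 160.4 and 173 CPM in replicates 1 to 4. The gamma cluster took 96.1% ± 0.610 of this sum, the alpha cluster 1.97% ± 0.560 and the beta cluster 1.94% ± 0.0714. Gamma shares were 96.5%, 96.3%, 96.4% and 95.2%, so replicate 4 was the lowest and the other 3 lay close together. Alpha shares were 1.66%, 1.66%, 1.74% and 2.80%, with replicate 4 apart from the rest. Counted per kilobase of exon, the gamma share was 96.2%, the beta and alpha shares were 2.83% and 0.947%, and the gamma cluster still led in all 4 libraries.

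**Figure D2:**
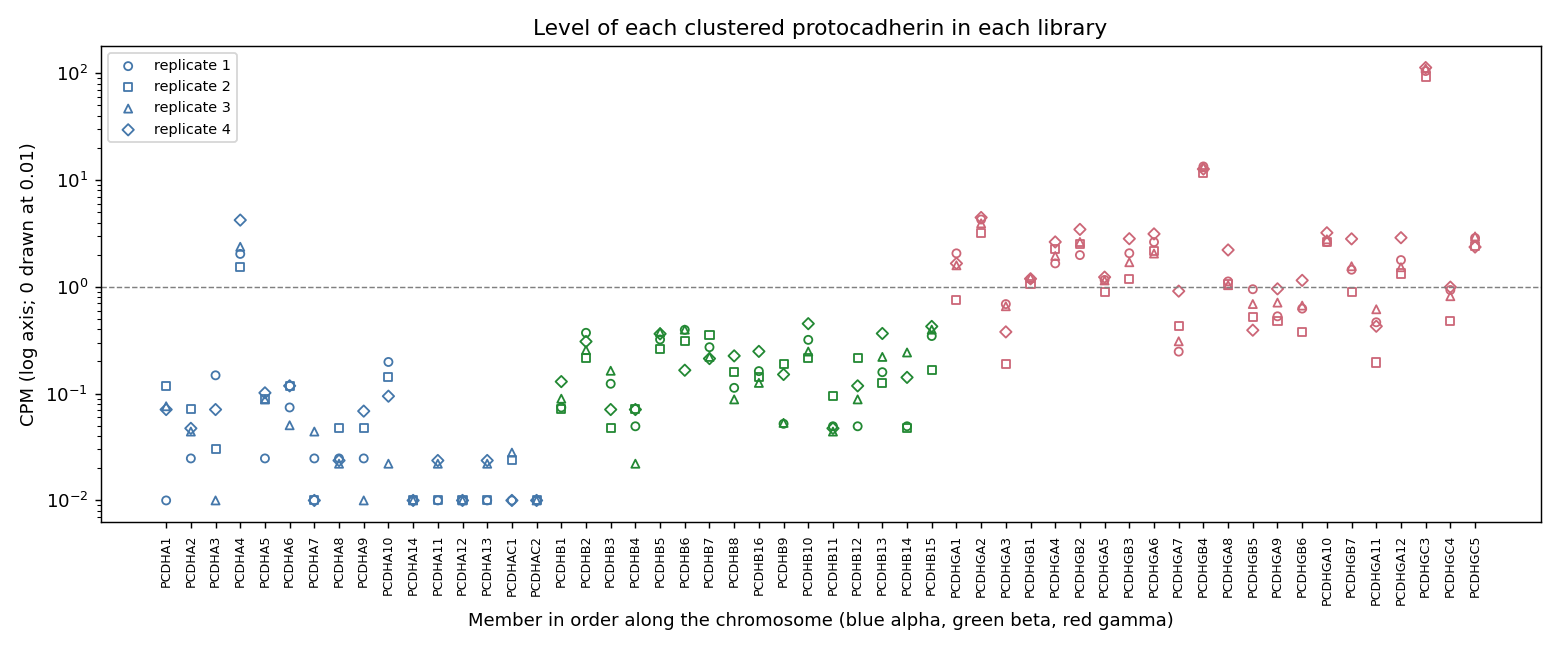
CPM of each member (y axis, log scale, 0 drawn at 0.01) in chromosomal order (x axis), with a symbol for each of the 4 libraries and a dashed line at 1 CPM. PCDHGC3 (93.2 to 113 CPM) and PCDHGB4 (11.6 to 13.4 CPM) stand above all other members, and PCDHA4 (1.55 to 4.22 CPM) stands alone in the alpha cluster.

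PCDHGC3, the first of the C-type genes at the end of the gamma cluster (chr5:141475947-141512979), had estimated counts of 4238, 3923, 5022 and 4775 in replicates 1 to 4. Gene counts do not show which of its annotated transcripts these came from. Its level was 105, 93.2, 111 and 113 CPM (105 ± 8.89). Replicate 2 was the lowest and replicate 4 the highest, at a ratio of 1.21, and the difference between libraries exceeded counting noise (chi-square test of homogeneity, Benjamini-Hochberg adjusted p = 1.77e-19). Its level per kilobase of exon, 19.4 ± 1.64 CPM per kb, was higher than that of 84.2% of 12930 detected genes with an annotated length. It made up 70.1%, 71.8%, 71.7% and 68.5% of the gamma cluster's CPM. The other C-type genes of the cluster share its constant exons but not its level. PCDHGC5 had 2.87, 2.40, 2.96 and 2.36 CPM (2.65 ± 0.313), and PCDHGC4 had 0.934, 0.475, 0.817 and 0.994 CPM (0.805 ± 0.232). Per kilobase, PCDHGC3 was 36.9 ± 4.80 times PCDHGC5 and 128 ± 36.0 times PCDHGC4, and higher in 4 of 4 libraries in both cases. The promoter window of PCDHGC3 is shown whole because it precedes the member with the highest level; capitals mark its element (chr5:141475716-141476015, + strand, RefSeq, GRCh38.p14).
PCDHGC3: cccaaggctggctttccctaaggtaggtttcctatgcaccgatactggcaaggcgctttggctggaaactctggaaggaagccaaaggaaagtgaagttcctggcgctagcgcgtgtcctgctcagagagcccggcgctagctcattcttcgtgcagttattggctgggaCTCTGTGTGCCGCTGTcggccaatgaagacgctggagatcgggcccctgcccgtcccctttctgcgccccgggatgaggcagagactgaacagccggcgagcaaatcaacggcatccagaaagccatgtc
Its G+C content was 59.0%, close to the median of 58.7% over all windows. The 4 C-type members with a window ranged from 59.0% to 66.0%, above each of the 43 other members with a window (32.3% to 51.3%) where the upstream window was used for a gene with more than 1. The downstream windows of PCDHGB6 (65.0%) and PCDHGB5 (60.0%) end this separation. PCDHAC1, whose window had the highest content, was at 0, 0.0237, 0.0280 and 0 CPM, and PCDHAC2 at 0.

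PCDHGB4 was next after PCDHGC3. This gamma B gene (chr5:141387698-141512979) had 13.4, 11.6, 13.2 and 12.7 CPM, a mean of 12.7 ± 0.819 CPM. Its libraries did not differ detectably beyond counting noise (adjusted p = 0.126, chi-square test). PCDHGC3 was 10.6 ± 0.604 times higher per kilobase, and higher in 4 of 4 libraries. By CPM the ratio was 8.31 ± 0.475, so its size depends on the lengths used. PCDHGB4 was in turn 3.14 ± 0.309 times PCDHGA2 per kilobase, again in 4 of 4 libraries. The share of PCDHGB4 in the gamma cluster was 8.96%, 8.91%, 8.51% and 7.69%.

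PCDHGB5, a gamma B gene further along the cluster, has the promoter element closest to that of PCDHGB4, with 1 differing base in 44. Its levels were 0.950, 0.519, 0.690 and 0.393 CPM (0.638 ± 0.241), all under those of PCDHGB4. The ratio of PCDHGB4 to PCDHGB5 per kilobase was 9.91, 15.6, 13.4 and 22.7 in replicates 1 to 4. The elements of PCDHGB4 and PCDHGC3 differed in 17 of 44 bases, and those of PCDHGC3 and PCDHGA2 in 18. Among the gamma genes with a window, the gamma form was in 7 of the 10 that were detected and in 4 of the 10 that were not. The form was read from these same windows, and a stretch that departs from it in any letter was not counted. Such near spellings were present in PCDHGA6, which was detected, and in PCDHGA3, which was not. A link between the element and detection was therefore not tested. A near-identical pair was also seen in the beta cluster, where the elements of PCDHB8 and PCDHB13 differed in 1 base and the levels were 0.147 ± 0.0603 and 0.218 ± 0.106 CPM.

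**Figure D3:**
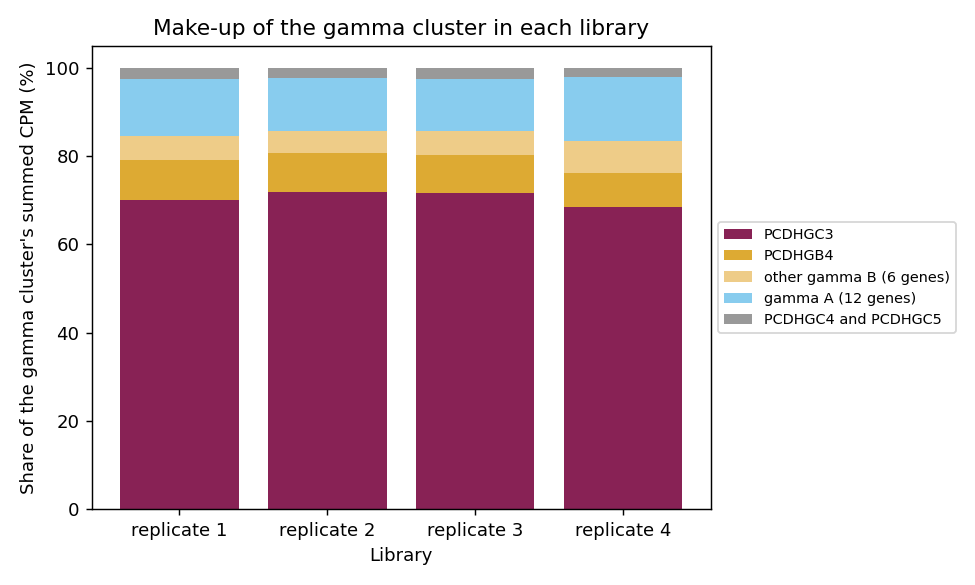
Share of the gamma cluster's summed CPM (y axis, percent) in each of the 4 libraries (x axis), with a colour for each gene or group of genes. PCDHGC3 fills 68.5% to 71.8% of every bar, and in replicate 4 the gamma A genes (14.6%) and the gamma B genes other than PCDHGB4 (7.17%) take their widest shares.

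The other gamma A and gamma B genes were each at low levels. Gamma A genes together gave 19.2, 15.6, 18.3 and 24.1 CPM, and the 6 gamma B genes other than PCDHGB4 gave 8.25, 6.55, 8.46 and 11.8 CPM. Replicate 2 was the lowest and replicate 4 the highest for both. PCDHGA2, the highest gamma A gene, had 4.27, 3.22, 3.93 and 4.46 CPM (3.97 ± 0.547). PCDHGA10 had 2.62, 2.65, 2.79 and 3.21 CPM (2.82 ± 0.271), and PCDHGA6 had 2.63, 2.14, 2.05 and 3.13 CPM (2.49 ± 0.498). Both were highest in replicate 4, and their libraries overlapped each other's range. PCDHGA4, a gene nearer the start of the cluster, had 1.66, 2.27, 1.94 and 2.63 CPM (2.13 ± 0.420). PCDHGA12, the last gamma A gene, had 1.78, 1.33, 1.53 and 2.88 CPM (1.88 ± 0.694). Replicate 4 was again the highest in both, while the lowest was replicate 1 for PCDHGA4 and replicate 2 for PCDHGA12. PCDHGA8 had 1.12, 1.06, 1.04 and 2.21 CPM (1.36 ± 0.572), with 3 libraries together and replicate 4 above them. PCDHGA11 was the lowest gamma A gene at 0.466, 0.196, 0.616 and 0.427 CPM (0.426 ± 0.174).

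Among the gamma B genes after PCDHGB4, PCDHGB2 had 1.98, 2.52, 2.63 and 3.45 CPM (2.65 ± 0.606). PCDHGB3 had 2.06, 1.19, 1.70 and 2.82 CPM (1.94 ± 0.688). The ranges of both genes overlapped. PCDHGB1, the gamma B gene nearest the start of the cluster, had 1.18, 1.05, 1.22 and 1.19 CPM (1.16 ± 0.0729) and the narrowest ratio of highest to lowest library among the tested members, 1.15. PCDHGB7 was not called detected because replicate 2 fell short, with 1.45, 0.894, 1.56 and 2.81 CPM (1.68 ± 0.811).

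Ordered by level per kilobase, the detected members ran PCDHGC3, PCDHGB4, PCDHGA2, PCDHGB2, PCDHGC5, PCDHGA4, PCDHGA10, PCDHGB3, PCDHGA12, PCDHGA6, PCDHGB1, PCDHA4 and PCDHGA8. Their values were 19.4 CPM per kb for PCDHGC3, 1.84 ± 0.119 for PCDHGB4, 0.590 ± 0.0813 for PCDHGA2 and, at the end, 0.157 ± 0.0660 for PCDHGA8. Of the 12 pairs of neighbours in this order, 9 had ranges that overlapped. In 1 of these 9, PCDHGA12 was above PCDHGA6 within each of the 4 libraries (0.370 and 0.332, 0.277 and 0.271, 0.317 and 0.259, 0.599 and 0.396 CPM per kb), but not by CPM. The other 8 pairs did not keep 1 order in all libraries and did not differ beyond their spread. The 3 pairs that did not overlap were PCDHGC3 over PCDHGB4, PCDHGB4 over PCDHGA2, and PCDHGA6 (0.314 ± 0.0629) over PCDHGB1 (0.243 ± 0.0153). The 3 highest lie near the start (PCDHGA2), in the middle (PCDHGB4) and near the end (PCDHGC3) of the gamma cluster. A relation of level to position was not tested.

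The alpha cluster was represented by PCDHA4, an alpha variable gene at chr5:140806929-141012344. It had 2.03, 1.55, 2.37 and 4.22 CPM, a mean of 2.54 ± 1.17 CPM, with replicate 4 above the other 3. The libraries differed beyond counting noise (adjusted p = 1.16e-13, chi-square test, highest over lowest 2.72), and without replicate 4 the adjusted p was 0.0521. Under the other alternatives the chi-square adjusted p ran from 4.24e-15 to 4.23e-08. PCDHA4 made up 78.9%, 69.2%, 85.0% and 86.8% of the alpha cluster's CPM. The remaining 15 alpha rows together had only 22, 29, 19 and 27.2 counts. PCDHA10, next by CPM, had 0.198, 0.142, 0.0221 and 0.0946 CPM. Per kilobase of a model of 13440 bases, PCDHA4 stood at 0.189 ± 0.0867 CPM per kb, above only 0.905% of the detected genes. Gene counts do not show which of its annotated transcripts was read.

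PCDHA4 and PCDHA12 both have the alpha form of the promoter element, and PCDHA12 had no count. PCDHA7, whose element differs from that of PCDHA4 in 14 of 44 bases, had 0.0247, 0, 0.0442 and 0 CPM. In all, 1 of the 9 alpha genes with the alpha form was detected. The C-type genes PCDHAC1 and PCDHAC2, at the end of the cluster as PCDHGC3 is at the end of its own, had 2.27 and 0 counts over the 4 libraries.

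Beta genes were low and even. All 16 had counts in every library, and none was detected by the rule above. Their sum was 2.91, 2.68, 3.03 and 3.50 CPM. PCDHB15, the last of the cluster and the highest by CPM, had 0.346, 0.166, 0.397 and 0.426 CPM (0.334 ± 0.117). PCDHB4 was the lowest by CPM, though not per kilobase, at 0.0495, 0.0712, 0.0221 and 0.0710 CPM (0.0534 ± 0.0233). This came from 9 counts in all (exact Poisson 95% interval 4.12 to 17.1). The evenness can be given as the number of equally high genes that would have the same diversity (the exponential of the Shannon entropy of the shares). It was 13.2 ± 0.646 for the 16 beta genes, 3.94 ± 0.298 for the 22 gamma genes and 2.49 ± 0.687 for the 16 alpha rows.

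The libraries were then compared with each other. Of the members, 29 reached a mean of 10 counts and could be tested: all 22 gamma genes, 6 beta genes and PCDHA4. The chi-square test called 16 of them (15 gamma genes and PCDHA4), and 59.2% of 16790 genes tested over the whole table were called. The share of members called was thus a little under that of all genes. Detection of a given fold rises with counts, and of the 7541 genes between 0.265 and 12.7 CPM, the range of the tested members below PCDHGC3, 37.1% were called, a lower share than among the members. No beta gene was called, with adjusted p between 0.216 and 0.833. For estimated counts of genes that share exons, the test also takes up any difference in how reads were divided, and the part of this in the calls was not tested.

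Among members called as varying, the widest differences were in genes at low levels, where counting noise also widens a ratio. The lowest library held 8 counts for PCDHGA3, 10 for PCDHGA7 and 8.24 for PCDHGA11 (highest over lowest 3.15). PCDHGA7 had 0.247, 0.427, 0.309 and 0.911 CPM (highest over lowest 3.68, adjusted p = 5.11e-05, chi-square test). PCDHGA3 had 0.689, 0.190, 0.658 and 0.378 CPM (ratio 3.63, adjusted p = 0.00386). PCDHGB7, given above, had a ratio of 3.15 (adjusted p = 6.84e-10). In PCDHGA7 replicate 4 stood above the rest, and in PCDHGA3 replicate 2 was the lowest. PCDHGA1, the first gene of the gamma cluster, had 2.06, 0.760, 1.59 and 1.66 CPM (ratio 2.71, adjusted p = 6.81e-05). PCDHGB6 had 0.625, 0.376, 0.667 and 1.15 CPM (ratio 3.06, adjusted p = 6.69e-04). In both of these replicate 2 was the lowest. Adjusted p was 1.42e-06 for PCDHGA12, 3.17e-06 for PCDHGA8 and 3.88e-06 for PCDHGB3. The others called were PCDHGB2 (0.00144), PCDHGA6 (0.0108), PCDHGB5 (0.0266), PCDHGA4 (0.0292), PCDHGA11 (0.0399) and PCDHGA2 (0.0451).

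Replicate 4 was the highest library for 12 of the 16 varying members, and 26.6% of all varying genes had their highest value there. Replicate 2 was the lowest for 10 of the 16, against 28.5% of all varying genes. Over the 29 tested members, replicate 4 was the highest for 18 (28.0% of all genes tested) and replicate 2 the lowest for 19 (28.4%). The median ratio of replicate 4 to the mean of the other libraries was 1.19 for the tested members and 0.992 for all genes tested. The ratio was above 1 for 23 of the 29 tested members and for 47.4% of all genes tested. Of the members below 1, PCDHGB5 and PCDHB6 were the furthest, with ratios of 0.546 and 0.451. PCDHB6 had 7 counts in replicate 4 and was not called as varying. Without replicate 4 the count of varying members was 6 (PCDHGC3, PCDHGA1, PCDHGA3, PCDHGA11, PCDHGB3 and PCDHGB7), and 46.8% of all genes tested were then called. PCDHGA1 (adjusted p = 0.288, chi-square test), PCDHGA3 (0.156), PCDHGA11 (0.482) and PCDHGA2 (0.653) lost their call without replicate 2, and PCDHGA4 (0.170) and PCDHGB5 (0.279) without replicate 1. PCDHGA11 also lost it without replicate 3 (0.114). Of the 16 calls, those of PCDHGC3, PCDHGB3 and PCDHGB7 held whichever library was left out. Summed neural markers were 128, 163, 148 and 133 CPM and summed mesenchymal markers 6709, 6976, 7040.3 and 6877 CPM in replicates 1 to 4, so neither sum was highest in replicate 4, nor lowest in replicate 2. VIM makes up most of the mesenchymal sum. Counted by gene, 4 of the 6 mesenchymal markers tested were highest in replicate 4 and 3 lowest in replicate 2, among them FN1 (639, 480.0, 645 and 768 CPM) and CD44 (1605, 1432, 1592 and 1612 CPM). Their part in the members' pattern was not tested. The epithelial markers summed to 361, 431, 408 and 367 CPM. The TMM factors of replicates 1 and 4 were alike (1.02 and 1.03).

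**Figure D4:**
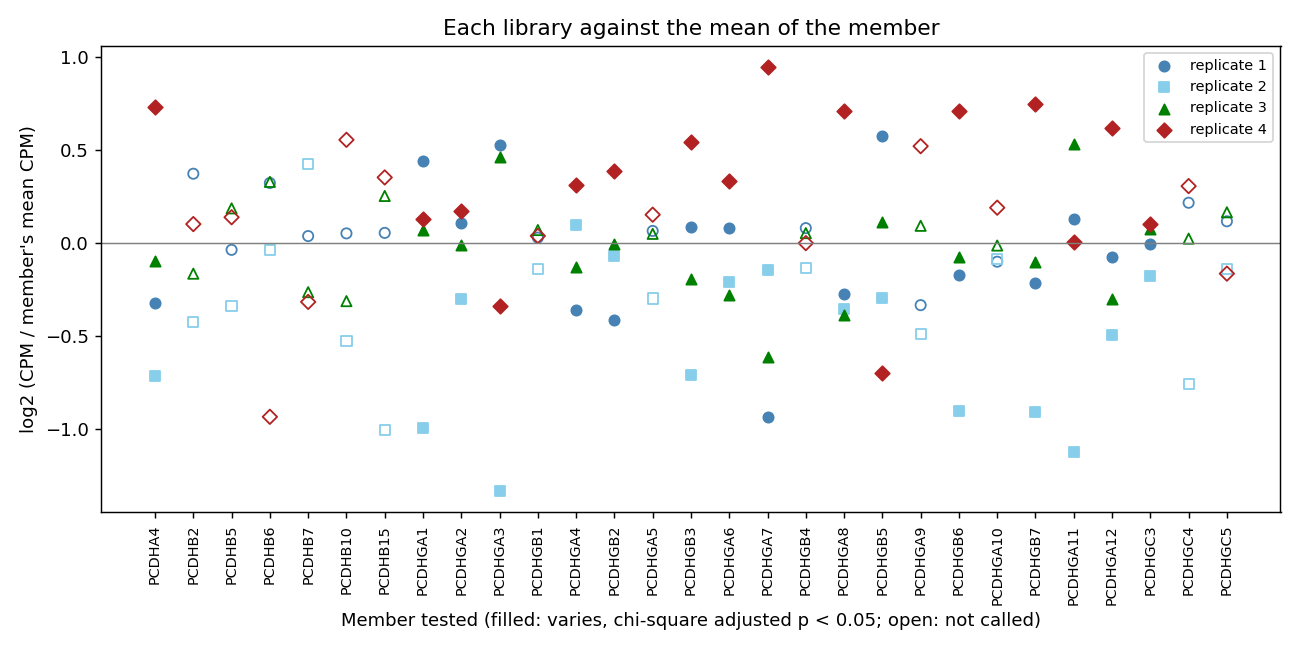
Log2 ratio of each library's CPM to the member's mean (y axis) for the 29 tested members in chromosomal order (x axis); filled symbols mark the 16 members called by the chi-square test and open symbols the rest. Replicate 4 is the highest library for 18 members and replicate 2 the lowest for 19.

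Genes that bear on the locus were described from fixed lists. Of 11 unclustered protocadherins, which stand alone in the genome and lack constant exons, 2 were detected. PCDH1, which lies beyond the gamma cluster on chromosome 5, had 10.9, 11.0, 11.8 and 12.9 CPM (11.7 ± 0.921), and PCDH9 had 2.42, 1.38, 2.36 and 2.61 CPM (2.19 ± 0.555). PCDH8 and PCDH10 were at 0 in every library. Of 6 tested, 2 were called as varying, PCDH1 and PCDH9, and 5 of the 6 had their highest value in replicate 4. The shares over all genes tested were 59.2% called and 28.0% highest in replicate 4.

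Of 15 genes for CTCF, cohesin and its regulators, 14 were detected, against 58.8% of protein-coding rows. The knocked-out gene HDAC8 is among these 14, and its level is no check of the knockout. The cohesin subunits RAD21 (362 ± 19.4 CPM), STAG2 (238 ± 12.5 CPM) and SMC1A (135 ± 17.5 CPM) and the cohesin regulator PDS5A (236 ± 14.5 CPM) were the highest, and CTCFL, the germline relative of CTCF, the lowest at 0.0364 ± 0.0589 CPM. CTCF itself, named for its role at these promoters, stood at 71.0 ± 1.87 CPM and was not called as varying (adjusted p = 0.153, chi-square test). Of the 14 genes of this list that were tested, 10 were called, among them RAD21, STAG2, SMC1A and PDS5A. Over all genes tested, 59.2% were called. All 14 genes listed as silencing factors were detected, with the corepressor TRIM28 at 637 ± 38.9 CPM, the maintenance methyltransferase DNMT1 at 219.5 ± 11.5, SMCHD1 at 138 ± 6.73 and the neuronal gene repressor REST at 96.4 ± 4.40 CPM. DNMT3B, which sets methylation at these promoters in early development, was the lowest at 5.23 ± 0.464 CPM.

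Of 23 genes for partners and processing of the proteins, 21 were detected. They were led by the WAVE complex members NCKAP1 (439 ± 22.2 CPM), CYFIP1 (246 ± 7.98 CPM) and WASF2 (209 ± 5.58 CPM) and by ADAM10, a protease that cleaves protocadherins (163 ± 12.5 CPM), and MARCKS was the lowest (0.0878 ± 0.0286 CPM). Genes flanking the clusters were mostly transcribed, 15 of 17 being detected. TAF7, a subunit of the general transcription factor TFIID that lies between the beta and gamma clusters, had 65.4, 67.9, 65.3 and 65.0 CPM (65.9 ± 1.34). DIAPH1, just beyond the gamma cluster, stood at 310.1 ± 9.11 CPM, and SLC25A2, which also lies between the beta and gamma clusters, at 0.0299 ± 0.0449 CPM. On the reverse strand, 12 antisense genes overlap exons of members, and together with 3 other overlapping genes none exceeded 4.70 counts in a library. The strand setting of the counting is not given in the sources used here, so reads of such pairs cannot be told apart.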

How the data were processed

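RNA-seq of 4 libraries was used. The file deposited by the authors gives an expected count for each gene and library without scaling, a unit read from the values. RSEM 1.3.3, Bowtie2 2.5.4, Trimmomatic 0.39 and DESeq2 1.46.0 are listed with GRCh38 per the submitters' processing notes. What each did, the annotation release and the strand setting: not given in the sources used here. No per-sample column was left unused.

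CPM used TMM effective library sizes (edgeR 4.0.16), with factors of 1.02, 0.963, 0.988 and 1.03. Lengths are joined exons of GENCODE 29, which held 94.0% of the gene IDs and all members. Expected counts were rounded before testing homogeneity by chi-square (3 degrees of freedom, threshold 0.05) for every gene averaging at least 10 counts, adjusted by Benjamini-Hochberg over them. The test was run on simulated counts with counting noise only and rises added for some genes in replicate 4. Those counts held no extra spread between libraries and no divided reads of shared exons. Named were detected and varying members, the highest and lowest of each subfamily, and in each list the 4 highest, the lowest and genes at 0, with some left out. CTCF, PCDHA7, PCDHA10, PCDHB6, PCDHB8, PCDHB13, PCDHGA5 and HDAC8 fall outside this rule and were named after their values were seen. Members and lists were chosen with earlier results of these data known. Alternatives were other scalings, thresholds, filters and lengths, and leaving out each library.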

Additional observations from a re-analysis of the deposited data

Results flagged for a closer look

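Of 26 results over the 4 libraries that were examined for a library far from the others, 3 stood out, and chance alone gives such a gap in about 1 of every 20. All 3 concern replicate 4. PCDHGA8, which shares 2266 bases with PCDHGB4 beyond the constant exons, was at 2.21 CPM there, against 1.04 to 1.12 CPM in the other libraries. How reads were divided between these genes in replicate 4 was not tested. The alpha cluster's share of the members' CPM was 2.80% there, where PCDHA4 was at 4.22 CPM. The gamma share was 95.2%, and since the shares sum to the whole, the last 2 are not independent of each other.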

How the results depend on the processing

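The number of detected members stayed at 13 with DESeq2 1.42.0 size factors or total counts, was 16 at 0.5 CPM, 6 at 2 CPM and 2 at 1 CPM per kilobase, and 13 to 16 when a library was left out. The number of varying members was 16 with DESeq2 size factors and unrounded counts, 19 with total counts, 14 without a count filter, 11 at a mean of 50 counts, and 6 to 17 when a library was left out, the lowest without replicate 4. Cluster shares did not depend on scaling. Per kilobase the alpha share was 0.947% and the beta share 2.83%, which follows from the different lengths of the models in the 3 clusters. The member with the highest CPM had 13440 exonic bases in the alpha cluster (PCDHA4), 5432 in the gamma cluster (PCDHGC3) and 4017 in the beta cluster (PCDHB15). When a library was left out the shares by CPM ranged from 1.69% to 2.07% (alpha), 1.92% to 1.97% (beta) and 96.0% to 96.4% (gamma). Of the 10 highest members per kilobase, 8 were shared with the order by CPM, and, as alternatives chosen after seeing the data, 9 with the order by longest transcript and 9 to 10 without a library. The order of the mean alpha and beta shares turned over per kilobase. By CPM, however, the alpha share was above the beta share in replicate 4 alone (2.80% and 2.02%). Without replicate 4 the means by CPM were 1.69% (alpha) and 1.92% (beta). PCDHGA12, above PCDHGA6 per kilobase of exon, was below it by CPM (1.88 and 2.49) and per kilobase of the longest transcript (0.396 and 0.440). PCDHGA2 and PCDHGA11 lost their call without a count filter. No paired analysis was possible because the labels give 1 group. Depth limits what can be said of beta genes and of alpha genes other than PCDHA4.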
